A study of Sus scrofa with 12 samples.

Results

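A set of 4 microRNA (miRNA) hairpins that lie inside introns of protein-coding genes was followed in pig ovaries together with the genes that host them. They are miR-335 in MEST, miR-204 in TRPM3, miR-140 in WWP2 and miR-151 in PTK2. The mature miRNA table lists 6 products of these 4 hairpins among 457 mature miRNAs, namely miR-335, miR-204 and both arms of miR-140 and miR-151, and the gene table lists all 4 hosts among 29884 genes. miR-335 and miR-204 were chosen by their measured RPM, because the values of the groups compared here do not overlap, so their group difference is given as a description without a test. No values of miR-140, miR-151 or the 4 hosts entered the choice. Ovaries came from sows of a commercial herd, 4 days after their 4th delivery, and the groups were sows of small litter size (SLS, 8.48 piglets per litter on average) and of large litter size (LLS, 16.19 piglets per litter on average). Each group had 3 ovaries, each the left ovary of a sow, which are ZD2, ZD3 and ZD12 in SLS and ZD5, ZD7 and ZD8 in LLS. The labels name no treatment, and breed and age are not given in the sources used here. From each ovary, total RNA without ribosomal RNA and small RNA were sequenced as separate libraries. Gene levels are in FPKM (fragments scaled to transcript length and library total), and miRNA levels are in RPM (reads scaled to the library total, with no length). Bulk ovary tissue was sampled, so a lower level from fewer cells of a type and one from less RNA per cell cannot be told apart.

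An intronic miRNA is cut from the primary transcript by the Drosha and DGCR8 complex and then by Dicer, and the arm of the hairpin that is loaded into an Argonaute protein guides repression of mRNAs that pair with its seed. Such a miRNA may be made from the transcript of its host or from a promoter of its own inside the host gene. The level of a host mRNA and that of its miRNA also depend on how fast each of them decays, and mRNA and miRNA are read in separate libraries.

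Mature sequences of 5 of the 6 miRNAs are shown because the seed (bases 2 to 8, in capitals) sets which mRNAs a miRNA can pair with, and because the arms of a hairpin carry different seeds. The mature sequences are those deposited with the miRNA levels, 5′ to 3′, in DNA letters. Each of the 6 matched the Sscrofa11.1 assembly (RefSeq) at its hairpin. No other miRNA in the table shared a seed with any of the 6.
miR-335: tCAAGAGCaataacgaaaaatg
miR-204: tTCCCTTTgtcatcctatgcct
miR-140-5p: aGTGGTTTtaccctatggtag
miR-140-3p: tACCACAGggtagaaccacggac
miR-151-5p: tCGAGGAGctcacagtctagt

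The hairpins of miR-335, miR-204 and miR-140 are shown with their mature products in capitals, to place the arms that were counted. For miR-335 and miR-204 the table lists 1 product each, from the 5′ side of the hairpin, and for miR-140 and miR-151 it lists the 5p arm, which is first in the sequence, and the 3p arm.
miR-335 hairpin: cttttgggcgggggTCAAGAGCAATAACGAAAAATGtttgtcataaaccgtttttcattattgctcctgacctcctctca
miR-204 hairpin: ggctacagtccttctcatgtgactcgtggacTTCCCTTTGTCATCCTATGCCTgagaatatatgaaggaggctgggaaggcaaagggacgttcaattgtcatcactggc
miR-140 hairpin: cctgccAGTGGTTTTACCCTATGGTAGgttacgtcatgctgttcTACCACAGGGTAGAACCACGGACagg

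Each hairpin lies on the strand of its host. The miR-335 hairpin, at chr18:18341580-18341659 on the minus strand, is in intron 2 of the longest MEST transcript, which has 12 exons, and it is intronic in 8 of 8 MEST transcripts. The miR-204 hairpin, at chr1:224065494-224065602 on the minus strand, is in intron 6 of the single annotated TRPM3 transcript of 27 exons, an intron of 41471 bases. The miR-140 hairpin, at chr6:17077530-17077599 on the minus strand, is in intron 16 of the longest WWP2 transcript of 24 exons, and 4 of 5 WWP2 transcripts span it. The miR-151 hairpin, at chr4:2849041-2849120 on the plus strand, is in intron 27 of the longest PTK2 transcript of 38 exons, and it is intronic in 40 of 40 PTK2 transcripts. The map of the hosts shows that miR-335 sits near the start of its host transcript, whereas the others sit in the later part of theirs.

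**Figure D1:**
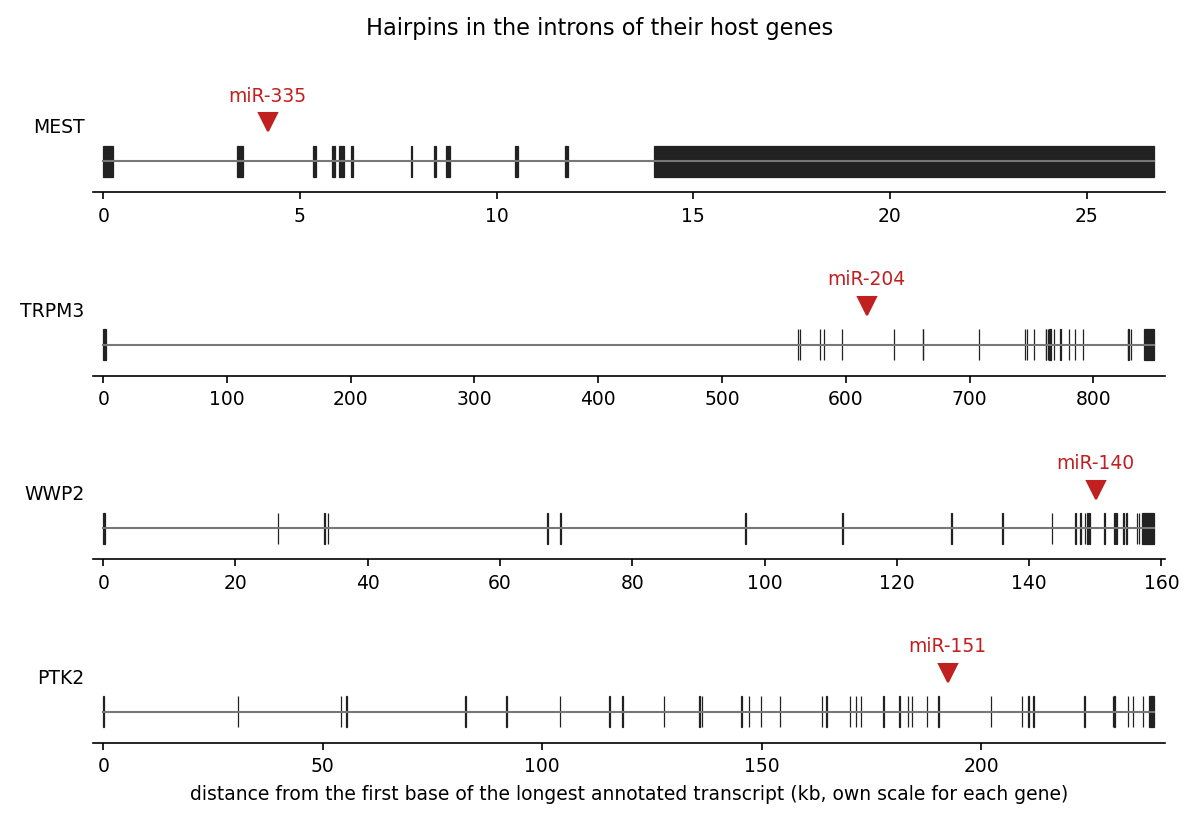
Longest annotated transcript of each host gene, drawn to scale from its first base (distance in kb, a scale for each gene), with exons as black boxes, introns as a line and the hairpin as a red triangle. The distance from the start of the transcript to the hairpin is 4184 bases in MEST, 616822 in TRPM3, 150092 in WWP2 and 192399 in PTK2, and exons thinner than the drawn line appear as lines.

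The gene libraries held between 32272803 reads (ZD8) and 60903268 reads (ZD2), and the miRNA libraries between 3537619 reads (ZD3) and 9854086 reads (ZD12). ZD8 stood apart in both tables. Its mean Spearman correlation with the other ovaries was 0.765 over genes, where the other 5 ovaries had 0.903 to 0.920, and 0.936 over miRNAs, where the others had 0.957 to 0.970. The 6 luteal cell markers (STAR, CYP11A1, HSD3B1, SCARB1, LHCGR and PTGFR) summed to 123 FPKM in ZD8 and to 9167 to 12190.5 FPKM in the other ovaries, and STAR was 26.4 FPKM in ZD8. The theca markers CYP17A1 and INSL3 summed to 415 FPKM in ZD8 and to 9.31 to 74.4 FPKM in the others. The 5 granulosa markers (FSHR, AMH, CYP19A1, INHA and FOXL2) summed to 127 FPKM in ZD8 and to 172 to 768 FPKM in the others, mostly from INHA. FSHR, AMH and FOXL2 were highest in ZD8, with FSHR at 10.8 FPKM, and CYP19A1, the aromatase gene, was at 0 FPKM in 5 ovaries. The 5 oocyte markers summed to 99.5 FPKM in ZD8 and to 6.19 to 19.8 FPKM in the others, and the 4 endothelial markers to 93.8 against 189 to 281 FPKM. Results that rest on ZD8 are therefore given with and without it. In the miRNA table another split was seen, in which ZD2 and ZD7, which are in different groups, were the 2 lowest or the 2 highest ovaries for 126 of the 353 miRNAs tested (35.7%).

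By the mean over the 6 ovaries, miR-151-3p was the most abundant of the 6 miRNAs, with 5572 RPM (rank 24 of 457), followed by miR-140-3p with 4562 RPM (rank 28) and miR-140-5p with 2211 RPM (rank 42). miR-204 had 316 RPM (rank 110), miR-151-5p had 254 RPM (rank 120) and miR-335 had 32.5 RPM (rank 208). The 6 together took 1.23% to 1.496% of each miRNA library, with the highest share in ZD8. Neighbours in this order were not all apart. miR-151-3p was above miR-140-3p in only 3 of 6 ovaries, and miR-204 was above miR-151-5p in 4 of 6, so neither pair differed beyond the spread over ovaries. The ranges of miR-140-3p and miR-140-5p overlapped, although the 3p arm was the higher in 6 of 6 ovaries. Ranges did not overlap between miR-140-5p and miR-204, a 6.99-fold difference of the means, or between miR-151-5p and miR-335, a 7.84-fold difference.

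**Figure D2:**
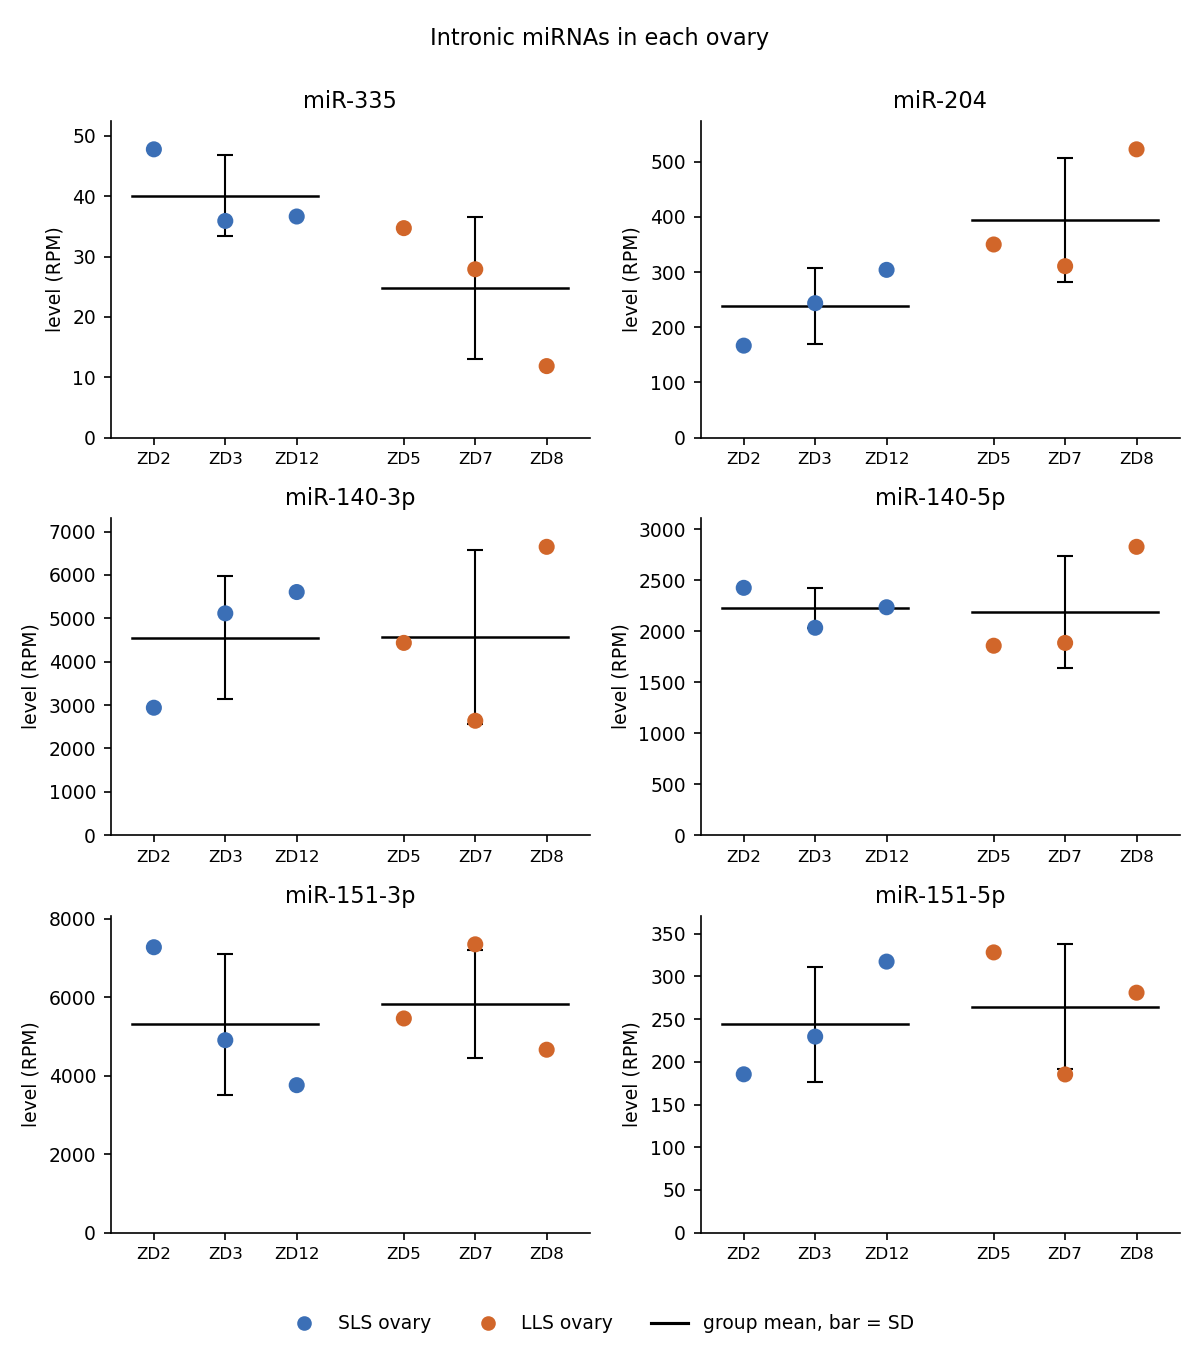
Level of each of the 6 miRNAs (RPM, linear axis from 0) in each ovary, with SLS in blue, LLS in orange, the group mean as a line and the SD (n = 3) as a bar. miR-335 and miR-204 were chosen because the groups do not overlap, and for the other 4 miRNAs the groups overlap.

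The first question was whether these miRNAs differed between LLS and SLS ovaries. Over all 353 miRNAs tested by limma, 0 were called (0%) with a call set at an adjusted p under 0.05 together with a log2 fold change beyond 1 in either direction. No miRNA had an unadjusted p under 0.05 by limma, against 4 by edgeR and 7 by DESeq2, which also called 0. The groups did not overlap for 10 of the 353 (2.83%), and miR-335 and miR-204 are 2 of these by the way they were chosen.

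miR-335 was described from few reads, between 103 and 361 per library. It stood at 47.8, 35.9 and 36.6 RPM in SLS (ZD2, ZD3 and ZD12) and at 34.7, 27.9 and 11.9 RPM in LLS (ZD5, ZD7 and ZD8). ZD8 was the lowest by a wide margin, and the highest LLS ovary was only just under the lowest SLS ovary. The group means were 40.1 ± 6.65 RPM in SLS and 24.8 ± 11.7 RPM in LLS (SD, n = 3). The log2 fold change was -0.78 on the log2(RPM + 1) scale, which was used for all miRNAs. It was -0.34 without ZD8 and -0.32 with limma's array weights. The gap between the groups was 0.05 on the log2 scale. The nearest miRNA on the other side of the rule was miR-187, with a gap of -0.02 and with 17.3, 13.9 and 11.2 RPM in SLS and 9.41, 11.4 and 5.18 RPM in LLS, where ZD7 was just above ZD12.

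miR-204 went the other way. It stood at 167, 244 and 304 RPM in ZD2, ZD3 and ZD12 and at 350, 311 and 522 RPM in ZD5, ZD7 and ZD8. ZD8 was the highest and ZD2 the lowest, and ZD7 was only just above ZD12, with a gap of 0.03 on the log2 scale. The group means were 238 ± 68.8 RPM in SLS and 394 ± 113 RPM in LLS (SD, n = 3), a log2 fold change of 0.73 that became 0.51 without ZD8. The lack of overlap depended on the scaling. Reads were also scaled by the trimmed mean of M values (TMM), a check of the overlap that was chosen after seeing the data. On this scale miR-204 was at 188, 221 and 327 counts scaled to the TMM library size (CPM) in SLS. In LLS it was at 285, 299 and 677 CPM, so that ZD12 lay above ZD5 and ZD7. miR-335 was still without overlap after TMM. In all, 12 of the 353 miRNAs had none on that scale (3.40%), and 6 had none on either scale.

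miR-140 gave 2 abundant products, neither of which differed detectably between the groups. miR-140-3p stood at 2938, 5114 and 5605 RPM in ZD2, ZD3 and ZD12 and at 4433, 2637 and 6647 RPM in ZD5, ZD7 and ZD8. ZD2 and ZD7, 1 ovary of each group, were low and the others high, so the groups overlapped fully. By limma, LLS against SLS gave a log2 fold change of -0.04 ± 0.46 (standard error) at an adjusted p of 0.997, with a 95% interval from -1.10 to 1.02, and the exact two-sided permutation test gave p = 1. miR-140-5p varied less, with 2426, 2034 and 2236 RPM in ZD2, ZD3 and ZD12 and 1858, 1886 and 2828 RPM in ZD5, ZD7 and ZD8. ZD8 was the highest and the other LLS ovaries were the lowest, on either side of SLS. Between LLS and SLS, limma gave a log2 fold change of -0.05 ± 0.35 (standard error) at an adjusted p of 0.997, with a 95% interval from -0.84 to 0.74, and the exact permutation test gave p = 0.8. With 3 ovaries against 3, an exact permutation test cannot go below p = 0.1.

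miR-151 gave the most abundant and one of the scarcer products of the 6. miR-151-3p stood at 7279, 4909 and 3762 RPM in ZD2, ZD3 and ZD12 and at 5463, 7353 and 4665 RPM in ZD5, ZD7 and ZD8. ZD2 and ZD7 were here the high ovaries, and the groups overlapped. The limma fit of LLS against SLS gave a log2 fold change of 0.16 ± 0.40 (standard error) at an adjusted p of 0.997, with a 95% interval from -0.75 to 1.07, and the exact permutation test gave p = 0.7. miR-151-5p stood at 185, 229.5 and 317 RPM in SLS and at 328, 185 and 281 RPM in LLS, in the same order of ovaries. ZD2 and ZD7 were now the low ovaries, almost equal to each other, and the groups overlapped. By limma, LLS against SLS gave a log2 fold change of 0.11 ± 0.41 (standard error) at an adjusted p of 0.997, with a 95% interval from -0.82 to 1.05, and the exact permutation test gave p = 0.8. The intervals of all 4 products of miR-140 and miR-151 include changes of 1.67-fold in either direction, so similar levels in the groups were not shown.

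The balance of the arms is a measure within a hairpin that does not depend on the library total. For miR-140 the ratio of 3p to 5p reads was 1.21, 2.51 and 2.51 in ZD2, ZD3 and ZD12 and 2.39, 1.40 and 2.35 in ZD5, ZD7 and ZD8. The 3p arm was in excess in every ovary, least in ZD2 and ZD7. For miR-151 the ratio was 39.3, 21.4 and 11.9 in SLS and 16.6, 39.7 and 16.6 in LLS. The 3p arm was again in excess in every ovary, and ZD2 and ZD7 were this time the ovaries with the largest excess. Between LLS and SLS, the mean of log2(5p/3p) differed by -0.01 for miR-140 (exact permutation p = 1) and by -0.05 for miR-151 (exact permutation p = 0.9), and in both the groups overlapped. The differences changed sign when single ovaries were left out.

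**Figure D3:**
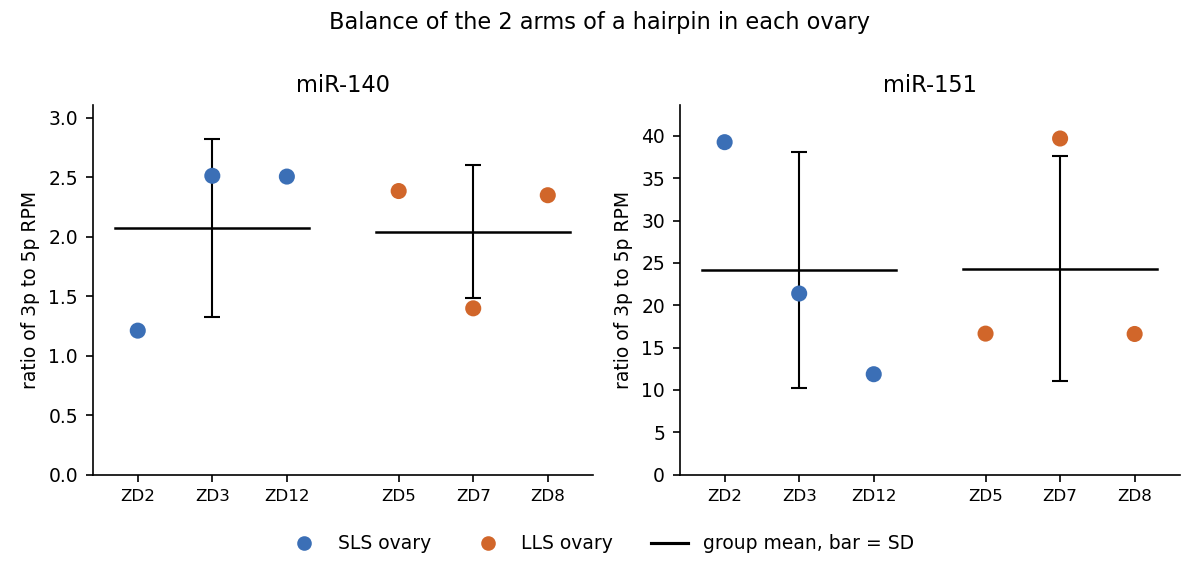
Ratio of 3p to 5p RPM (linear axis from 0) for the miR-140 and miR-151 hairpins in each ovary, with SLS in blue, LLS in orange, the group mean as a line and the SD (n = 3) as a bar. ZD2 and ZD7 have the lowest ratios of miR-140 (1.21 and 1.40) and the highest ratios of miR-151 (39.3 and 39.7).

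The opposite places of ZD2 and ZD7 showed in how the arms moved together over the 6 ovaries. The arms of miR-151 had a Pearson r of -0.81 (exact permutation p = 0.0611, adjusted over the 2 hairpins p = 0.122) and a Spearman rho of -0.66 (exact permutation p = 0.175). Without ZD2 and ZD7, the ovaries farthest from the median of the 3p arm, r was -0.16. The relation was thus not seen among the other ovaries, which covered a narrower range. The arms of miR-140 had an r of 0.45 (exact permutation p = 0.358, adjusted p = 0.358 by the same permutations) and a rho of 0.54 (exact permutation p = 0.297). The r between these arms was -0.49 without the 2 farthest ovaries, ZD7 and ZD8, and 0.0037 without ZD8. Without ZD2 and ZD7, a setting chosen after seeing the data, the r of the miR-140 arms was 0.98. The same split was seen in other hairpins. Among the 72 hairpins with both arms tested, ZD2 and ZD7 were the 2 lowest or the 2 highest in arm ratio for 31 (43.1%). The median r between arms over the 72 was 0.62, and 14 were below 0. The arm ratio ranged more widely over the ovaries than that of miR-151 in 22 of the 72, and more widely than that of miR-140 in 50.

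The second question was whether the host genes differed between the groups. Of 12260 genes tested by limma, 0 were called (0%), with 216 at an unadjusted p under 0.05, and edgeR called 0 while DESeq2 called 20. Leaving out ZD8 gave 20 called genes by limma. The groups did not overlap for 628 of the 12260 genes (5.12%), and for 0 of the 4 hosts. WWP2 and PTK2 were tested in each of these fits and not called. MEST was not called where it was tested, but it missed the filter without ZD8, and TRPM3 was tested only in the fit without the filter.

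MEST, an imprinted gene for a hydrolase-like membrane protein that is expressed from the paternal copy in placental mammals, was at a low level. It stood at 0.654, 0.591 and 1.56 FPKM in ZD2, ZD3 and ZD12 and at 1.11, 0.763 and 1.65 FPKM in ZD5, ZD7 and ZD8, from 423 to 1143 reads. ZD12 and ZD8, 1 of each group, were the highest, and the groups overlapped. By limma on the log2(FPKM + 1) scale, LLS against SLS gave a log2 fold change of 0.18 ± 0.32 (standard error) at an adjusted p of 0.999, with a 95% interval from -0.55 to 0.91, and the exact permutation test gave p = 0.5. The value was 0.36 with a pseudocount of 0.1 and 0.34 by edgeR and DESeq2, 0.09 without ZD2, 0.06 without ZD3 and 0.32 without ZD7. These FPKM values rest on a transcript of 13839 bases, of which 12411 lie within COPG2, a coat protein gene on the opposite strand, and 619 in exons of COPG2. The other 7 MEST transcripts are 1228 to 3289 bases long and share no base with COPG2, and the same reads on the transcript of 3289 bases would give 2.49 to 6.93 FPKM, and on that of 1228 bases 6.66 to 18.6 FPKM. The study's library protocol removes the second cDNA strand and so keeps strand. Whether the counting used strand is not given in the sources used here, and if it did not, reads of COPG2 in the shared stretch could have been counted as MEST. COPG2 was at 31.2 to 47.2 FPKM, with an r with MEST of 0.75 over the ovaries (exact permutation p = 0.125) and a rho of 0.60 (exact permutation p = 0.242). That r was 0.57 without ZD8 and -0.54 without the 2 ovaries farthest from the COPG2 median, ZD8 and ZD12.

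TRPM3, a calcium-permeable cation channel gated by heat and by the steroid pregnenolone sulfate, was low in 5 ovaries and higher in 1. It stood at 0.152, 0.282 and 0.468 FPKM in ZD2, ZD3 and ZD12 and at 0.258, 0.391 and 3.96 FPKM in ZD5, ZD7 and ZD8, and the reads behind these values were 133, 209, 355, 213, 341 and 1831 in the same order. ZD8 was 8.46-fold above the next ovary, ZD12, while the other 5 ovaries differed among themselves by up to 3.07-fold, and SLS and LLS overlapped. TRPM3 did not pass the filter of at least 1 FPKM in 3 libraries, so its test comes from the fit without that filter. Between LLS and SLS, limma gave a log2 fold change of 0.67 ± 0.55 (standard error) at an adjusted p of 0.993, with a 95% interval from -0.68 to 2.01, and the exact permutation test gave p = 0.5. Without ZD8 it was 0.03, and without ZD5 1.02. Over all 6 ovaries it was 1.23 with a pseudocount of 0.1 in place of 1. ZD8 had low sums of luteal and endothelial and high sums of theca and oocyte markers, and other genes than TRPM3 were also high there. The part of the makeup of that ovary in the TRPM3 value was not tested.

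WWP2, a HECT-type ubiquitin ligase of the NEDD4 family, was at 16.3, 11.3 and 18.2 FPKM in ZD2, ZD3 and ZD12 and at 13.1, 15.1 and 25.3 FPKM in ZD5, ZD7 and ZD8. ZD8 was the highest and ZD3 the lowest, and the groups overlapped. The limma fit of LLS against SLS gave a log2 fold change of 0.18 ± 0.33 (standard error) at an adjusted p of 0.999, with a 95% interval from -0.57 to 0.93, and the exact permutation test gave p = 0.7. The sign turned without ZD8, to -0.09, and without ZD3, to -0.01. PTK2, the focal adhesion kinase that relays integrin signals, was at 29.0, 30.2 and 29.9 FPKM in SLS and at 24.2, 29.7 and 31.6 FPKM in LLS, in the same order of ovaries. It was the steadiest of the hosts, with a coefficient of variation of 8.84% over the 6 ovaries against 163% for TRPM3, and only ZD5 was apart. By limma, LLS against SLS gave a log2 fold change of -0.07 ± 0.24 (standard error) at an adjusted p of 0.999, with a 95% interval from -0.63 to 0.50, and the exact permutation test gave p = 0.8. Per length, PTK2 was the highest host, with a mean of 29.1 FPKM, and WWP2 followed with 16.6 FPKM. Their ranges overlapped only because WWP2 in ZD8 exceeded PTK2 in ZD5. MEST (1.05 FPKM) and TRPM3 (0.918 FPKM) overlapped each other and were below both in every ovary. The place of MEST in this order rests on its transcript of 13839 bases. On that of 1228 bases, its range of 6.66 to 18.6 FPKM would overlap that of WWP2 and lie above every TRPM3 value.

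**Figure D4:**
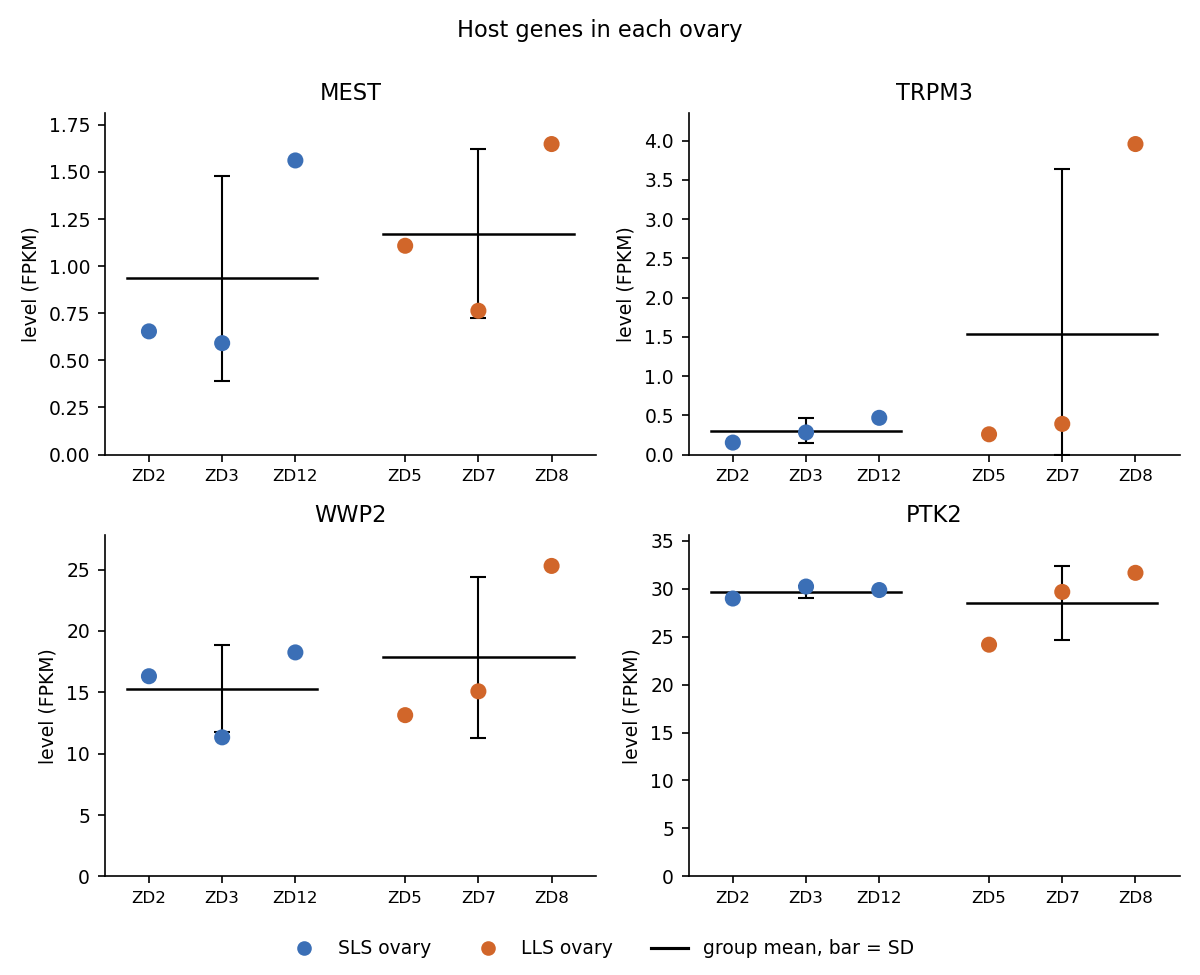
Level of each host gene (FPKM, linear axis from 0) in each ovary, with SLS in blue, LLS in orange, the group mean as a line and the SD (n = 3) as a bar, which is drawn down to 0 where it would pass it. ZD8 is the highest ovary for all 4 hosts, at 3.96 FPKM for TRPM3 and 25.3 FPKM for WWP2, and SLS and LLS overlap for each host.

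The levels of the miRNAs were also set beside those of their hosts. miR-140-3p and miR-151-3p overlapped although PTK2 was above WWP2 in 6 of 6 ovaries. miR-204 was 9.74-fold above miR-335, and the order of TRPM3 and MEST depended on the MEST transcript as given above.

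The third question was whether a miRNA and its host moved together over the 6 ovaries. In all, 6 pairs were compared, with p-values from all pairings of the ovaries and adjusted over the 6. On the main scale, log2(value + 1), 0 of the 6 had an adjusted p under 0.05. The highest r were those of miR-140-5p with WWP2 and of miR-204 with TRPM3, and 3 of the 6 were below 0.

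For miR-204 and TRPM3, r was 0.79 (exact permutation p = 0.0542, adjusted p = 0.163 by the same permutations) and rho was 0.60 (exact permutation p = 0.242). ZD8 was the highest ovary and ZD2 the lowest in both, as the panels of miRNA against host show. Without ZD8, r was 0.69 (exact permutation p = 0.217), and without ZD2 it was 0.88 (exact permutation p = 0.117). Without both, the ovaries farthest from the TRPM3 median, r was 0.06, over a narrower range of TRPM3. That value alone does not show which ovaries the relation rested on. The relation was closer under other scalings. With median centring of both tables r was 0.95 (exact permutation p = 0.0139, adjusted p = 0.0833 by the same permutations). With TMM scaling of the reads of both tables r was 0.98 (exact permutation p = 0.00417, adjusted p = 0.025 by the same permutations), the only value among the scalings tried for the 6 pairs with an adjusted p under 0.05. On that scale TRPM3 was at 2.26, 4.30 and 6.25 CPM in SLS and at 4.14, 5.95 and 50.04 CPM in LLS. Without ZD8, a combination chosen after seeing the data, the TMM value was 0.90 (exact permutation p = 0.025, adjusted p = 0.15 by the same permutations), and without ZD8 and ZD2 it was 0.73. Across genes, which are not independent replicates, 7.27% of the 12260 genes had an r with miR-204 at least as high as that of TRPM3 on the main scale, and 0.367% did so with TMM.

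For miR-140-5p and WWP2, r was 0.84 (exact permutation p = 0.0389, adjusted p = 0.163 by the same permutations) and rho was 0.77 (exact permutation p = 0.103). ZD8 was the highest in both, and r was 0.56 without it (exact permutation p = 0.317) and 0.75 without ZD8 and ZD3. The other arm of the same hairpin was less close to the host. miR-140-3p had an r with WWP2 of 0.38 (exact permutation p = 0.474, adjusted p = 0.710 by the same permutations) and a rho of 0.49 (exact permutation p = 0.356), and r was -0.18 without ZD8 and 0.25 without ZD8 and ZD3. ZD2 and ZD7 were low in miR-140-3p but in the middle for WWP2. The difference between the arms in their r was not tested. Across genes, 13.6% of the 12260 had an r with miR-140-5p at least as high as that of WWP2, and the median r with miR-140-5p was 0.34.

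For miR-335 and MEST, r was -0.60 (exact permutation p = 0.192, adjusted p = 0.383 by the same permutations) and rho was -0.49 (exact permutation p = 0.356). ZD8 had the lowest miR-335 and the highest MEST, and r was -0.12 without it and -0.30 without ZD8 and ZD12. It was -0.29 with median centring (exact permutation p = 0.543), -0.50 with TMM and -0.85 without ZD12 (exact permutation p = 0.075). The limit on the MEST reads given above holds here too, and miR-335 had an r of -0.65 with COPG2 (exact permutation p = 0.135). The median r of miR-335 over the 12260 genes was -0.31.

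For miR-151 and PTK2, r was -0.18 for the 3p arm (exact permutation p = 0.75, adjusted p = 0.75 by the same permutations) and -0.35 for the 5p arm (exact permutation p = 0.606, adjusted p = 0.727 by the same permutations). The values of rho were -0.60 (exact permutation p = 0.242) and -0.09 (exact permutation p = 0.919). PTK2 hardly varied apart from ZD5. Without ZD5 and ZD8, the ovaries farthest from the PTK2 median, r was -0.65 for the 3p arm and 0.53 for the 5p arm. With TMM scaling the 3p arm had an r of 0.35, opposite in sign to the main scale, and the 5p arm one of -0.81 (exact permutation p = 0.0792).

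**Figure D5:**
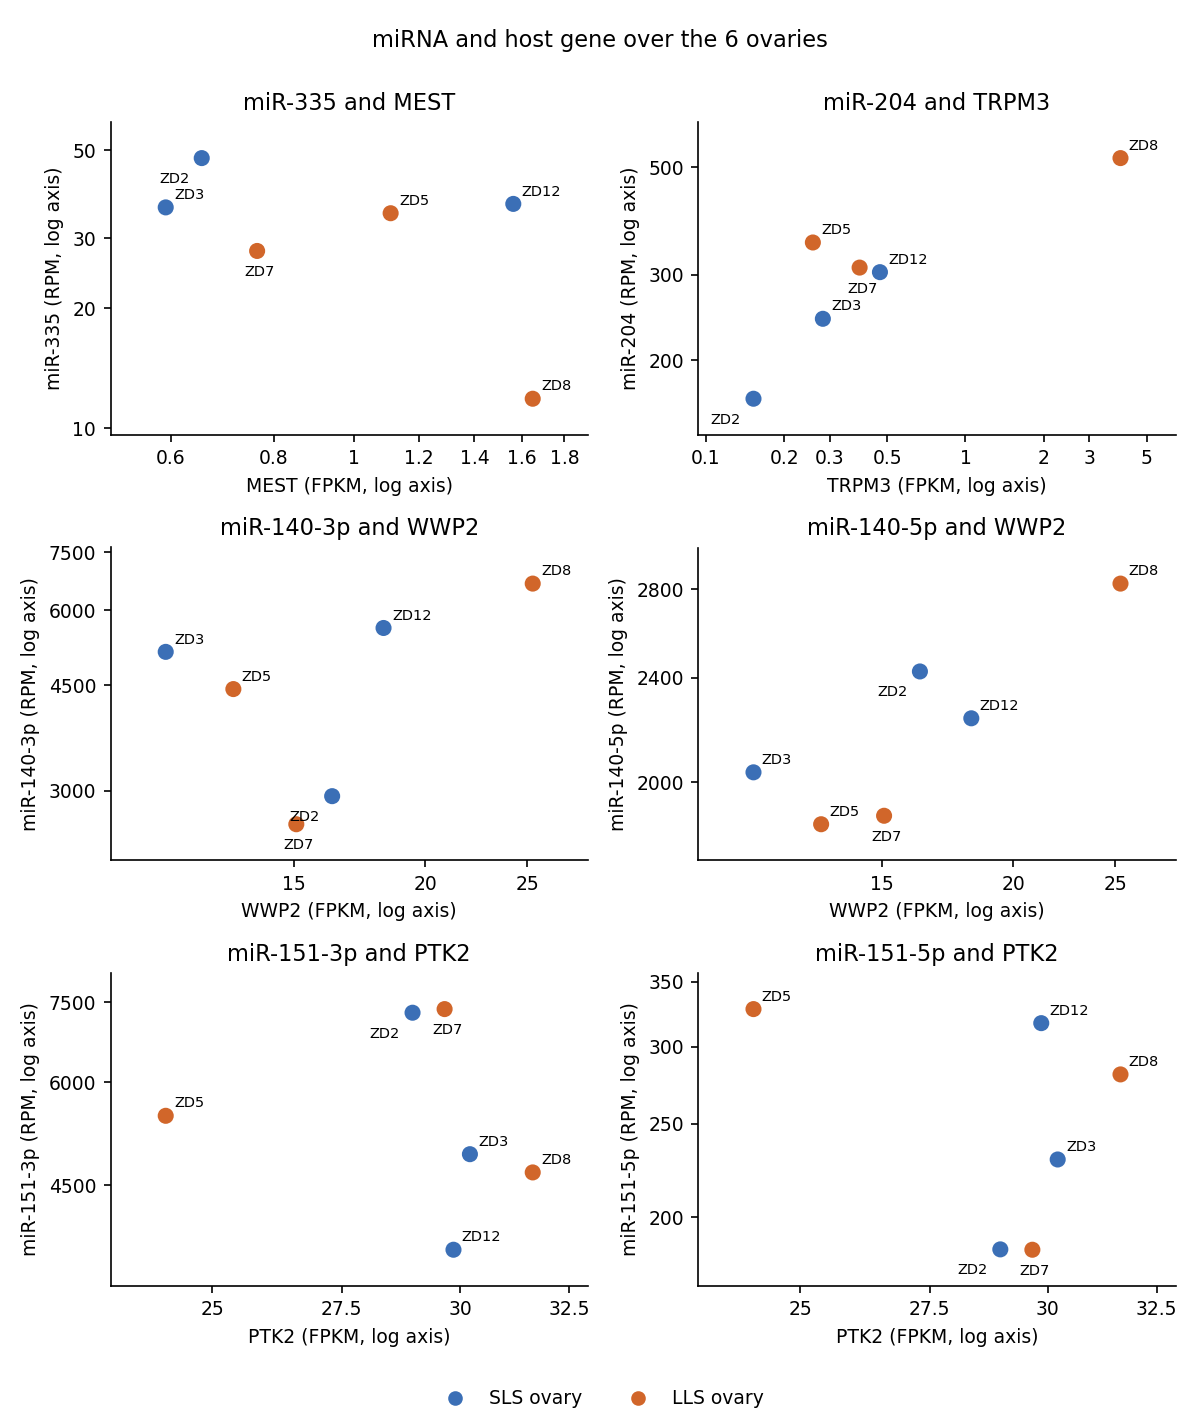
Level of the miRNA (RPM, log axis) against that of its host (FPKM, log axis) for the 6 pairs, with 1 point per ovary, SLS in blue and LLS in orange. ZD8 is at the top right for miR-204 with TRPM3 and for both arms of miR-140 with WWP2, and at the bottom right for miR-335 with MEST (11.9 RPM and 1.65 FPKM).

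Among themselves, the miRNAs had the largest r by size between hairpins for miR-140-3p and miR-151-3p, -0.91, over the same 6 libraries. It was -0.96 without ZD8 and -0.52 without ZD2 and ZD7, both settings chosen after seeing the data. Among the hosts, TRPM3 and WWP2 had the highest r, 0.83, which fell to 0.33 without ZD8. MEST and PTK2 had the lowest, 0.10, which was -0.26 without ZD8.

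The features most alike to each member over the 6 ovaries were then listed, by Pearson r on log2(value + 1) as a description. They were picked for the highest r among all features tested, so their r is high by selection. Values without ZD8 reuse ovaries that took part in that choice. The 3 miRNAs closest to miR-335 were miR-187 (0.93), miR-137 (0.91) and miR-20b (0.91), which had r of 0.70, 0.82 and 0.61 without ZD8. Closest to miR-204 were miR-95 (0.95), miR-30a-3p (0.93) and miR-320 (0.91), with 0.89, 0.86 and 0.83 without ZD8. miR-140-3p was closest to miR-10388, miR-145-5p and miR-133a-3p, with r of 0.99, 0.99 and 0.97. miR-145-5p, known as a miRNA of smooth muscle, stood at 1832, 3982 and 6454 RPM in ZD2, ZD3 and ZD12 and at 3733, 1406 and 7001 RPM in ZD5, ZD7 and ZD8, which ranks the ovaries as miR-140-3p does. The 5 smooth muscle marker genes summed to 1796, 646 and 1109 FPKM in ZD2, ZD3 and ZD12. In ZD5, ZD7 and ZD8 they summed to 314, 668 and 914 FPKM, another order. This sum came mostly from ACTA2 and TAGLN, each highest in ZD2, and CNN1 was highest there too. MYH11 was highest in ZD8 (190 FPKM) and next in ZD12 (47.1 FPKM), as miR-145-5p was, and DES was highest in ZD8. The part of smooth muscle in the shared order of the miRNAs was not tested. miR-140-5p was closest to miR-28-5p (0.94), miR-30e-5p (0.94) and miR-455-5p (0.93), none of which was among the closest to the 3p arm. miR-151-3p was closest to miR-218b, miR-24-1-5p and miR-218 (each 0.99), and miR-151-5p to miR-7-3p (0.98), miR-30b-5p (0.95) and miR-29b (0.93).

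For the hosts, the closest genes to TRPM3 were KIDINS220, DOK2 and SDE2 (0.999, 0.998 and 0.998), of which KIDINS220 stood at 21.0 to 24.5 FPKM in 5 ovaries and at 57.7 FPKM in ZD8. Without ZD8 these 3 had r with TRPM3 of 0.96, 0.91 and 0.92. WWP2 was closest to TANGO6, ZNF384 and LOC100738955 (0.998, 0.997 and 0.997), which had r of 0.996, 0.993 and 0.993 without ZD8. PTK2 was closest to NFKB1, LOC100516649 and STIL (0.95, 0.94 and 0.94), and NFKB1 was at 13.0 FPKM in ZD5 and at 17.7 to 22.5 FPKM in the other ovaries.

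Genes related to the hosts by family or pathway, and genes known as targets of the miRNAs, were counted on lists. None of the genes on these lists was called between LLS and SLS by limma, where 0% of all genes were called. Over all genes tested, the median log2 fold change was 0.02, and 52.6% were higher in LLS. The median over all genes was -0.10 without ZD8 and -0.12 with array weights. Of 9 ubiquitin ligases of the NEDD4 family, 8 were tested, all with a higher mean in LLS, with a median of 0.21 and values from 0.05 (WWP1) to 0.35 (NEDD4L). With limma's array weights 7 of the 8 had a positive log2 fold change, and without ZD8 5 of 8, with a median of 0.08. Of 18 focal adhesion genes, 18 were tested, 8 with a higher and 10 with a lower mean in LLS, with a median of -0.09. Without ZD8 4 were higher and 14 lower, with a median of -0.14, and without ZD5 the median was 0.01. With array weights 5 had a positive and 13 a negative log2 fold change. The main values of the 18 ran from -0.37 for ITGAV, an integrin chain, to 0.33 for TLN2, a talin that links integrins to actin. Without ZD8 they were -0.14 and -0.48, so the sign of TLN2 rested on ZD8, where it was highest. Of 8 TRPM channel genes, 3 were tested, TRPM4, TRPM6 and TRPM7, at -0.31, 0.35 and 0.03, and the others, TRPM3 among them, were below the filter. With array weights all 3 had a negative log2 fold change, and without ZD8 TRPM4 and TRPM7 did and TRPM6 was below the filter. TRPM6, a magnesium channel, resembled TRPM3 in being highest in ZD8, at 7.21 FPKM against 0.809 to 2.45 FPKM in the other ovaries. Of 8 genes of the imprinted region of MEST, only MEST and COPG2 were tested, and the others were below the filter.

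The target lists hold genes reported for these miRNAs in other systems, and no seed match was searched. For miR-335, 6 of 7 genes were tested, with a median log2 fold change of 0.08 from -0.55 (TNC, a matrix protein) to 0.25 (SOX4, a transcription factor). Without ZD8 TNC was at -0.75 and SOX4 at -0.33, so the sign of SOX4 rested on that ovary. The median turned to -0.23 without ZD8, to -0.09 without ZD2 and to -0.16 with array weights. In the same settings the medians over all genes were -0.10, -0.02 and -0.12. For miR-204, 9 of 9 were tested, with a median of 0.11 from -0.61 (RUNX2, a transcription factor) to 0.55 (BCL2, an inhibitor of apoptosis). This median too turned, to -0.23 over the 8 genes tested without ZD8, to -0.04 without ZD2 and to -0.21 with array weights. In the fit with array weights 2 of the 9 genes had a positive log2 fold change. RUNX2 stood at 49.9, 73.8 and 35.8 FPKM in SLS and at 51.2, 45.4 and 15.3 FPKM in LLS, with ZD8 the lowest and the groups overlapping, and its log2 fold change was -0.08 without ZD8. BCL2 stood at 2.52, 4.58 and 6.40 FPKM in SLS and at 2.90, 2.94 and 28.7 FPKM in LLS, with ZD8 the highest, and its log2 fold change was -0.42 without ZD8. For miR-140, 5 of 5 were tested, with a median of -0.09 from -0.30 (ADAMTS5, a cartilage protease) to 0.36 (HDAC4, a histone deacetylase), and HDAC4 was at 0.09 without ZD8 and ADAMTS5 at -0.03 without ZD3. The median was 0.11 without ZD12. The single gene listed for miR-151, ARHGDIA, had a log2 fold change of -0.53 ± 0.41 (standard error) at an adjusted p of 0.999 by limma, and its groups overlapped. It ran from -0.82 without ZD3 to -0.31 without ZD2 when 1 ovary was left out.

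For comparison, other miRNAs of known intronic position were set beside their hosts, with only the product of higher mean from each hairpin. Of 55 listed pairs, 32 had the hairpin inside the host on the same strand in this annotation, and in 26 both the miRNA and the host were tested. Their r over the 6 ovaries ran from -0.82 (miR-152 with COPZ2) to 0.91 (miR-30e with NFYC), with a median of 0.37, and 18 of 26 were above 0. Without ZD8 the median was -0.02 and 13 of 26 were above 0. The 6 pairs described here, from -0.60 to 0.84, lay within that range. They hold both arms of miR-140 and miR-151 and a host below the filter, TRPM3, so the sets were not formed alike.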

How the data were processed

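Ovaries of 3 SLS and 3 LLS sows were grouped by the labels, with 1 gene library and 1 small RNA library each. For genes, the authors removed ribosomal RNA, trimmed reads with NGSQCToolkit, mapped them with HISAT2 to Sscrofa11.1 and deposited FPKM values. For mature miRNAs, the authors deposited RPM values (named TPM in the file), and their processing notes name BWA. The counting program, strand setting and annotations are not given in the sources used here.

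The deposited FPKM values were turned back into whole reads for 23477 of 23546 genes (99.7%, within 0.001 of a whole read, with the longest RefSeq transcript) and likewise all 2618 deposited RPM values above 0. A count of 3 reads was 0.304 to 0.848 RPM. Positions and hairpin sequences came from Sscrofa11.1 and its RefSeq annotation, and mature sequences came from the deposited miRNA table.

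LLS was compared with SLS by limma 3.58.1 (R 4.3.3) with a trended variance on log2(value + 1), over features with at least 1 FPKM or RPM in 3 libraries (12260 genes and 353 miRNAs). p-values were adjusted by Benjamini-Hochberg over all features tested, and a call needed an adjusted p under 0.05 together with a log2 fold change beyond 1 in either direction. Single values were compared by exact two-sided permutation tests. Relations over the 6 ovaries were tested over all 720 pairings. Alternatives covered the pseudocount (0.1), the filter, quantile normalization, median centring, array weights, edgeR 4.0.16 and DESeq2 1.42.0 on recovered reads, TMM scaling, and leaving out each ovary. The fits were tested on simulated data.

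The members, lists and tests were chosen with earlier results of these data known. The genes named are all members, the 3 features most alike to each member (not reported here for MEST), the genes called on a list or at the ends of its range, and the intronic pairs with the highest and lowest r. Some further features were chosen after their values were seen. They are COPG2, the closest miRNAs and genes given by sample, and genes named from the lists for other reasons. The last are FSHR, AMH, FOXL2, TEK, RUNX2, BCL2, TRPM6 and the smooth muscle genes by sample, the TRPM genes tested and ARHGDIA. The p-values measure the spread between ovaries of different sows within a herd.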

Additional observations from a re-analysis of the deposited data

Results flagged for a closer look

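The gene table also has a row for the MIR140 hairpin, which no comparison above uses. It held 4 reads in ZD5 and 8 reads in ZD8, both LLS, which is more than the 3 reads that a count of 0 allows, and 2 reads in ZD3, an SLS ovary, with none in the other 3 ovaries. These rows were looked at because they lie outside the main measurement. The rows of the other 3 hairpins held at most 3 reads in any library.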

How the results depend on the processing

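No miRNA was called under any alternative. The count of called genes moved from 0 to 13 with array weights, to 20 with DESeq2, and from 0 to 20 over the fits that leave out 1 ovary, with 20 only without ZD8, and WWP2 and PTK2 were tested in each fit without being called. MEST was below the filter without ZD8, ZD5 or ZD12. Array weights moved the median log2 fold change of all genes from 0.02 to -0.12. Fold changes near 0 changed sign without passing any threshold. Median centring put miR-140-3p at 0.0262 and miR-140-5p at 0.0132, edgeR put miR-140-3p at 0.0769, and DESeq2 put them at 0.12 and 0.0568. In addition, miR-151-5p was at -0.0276 and PTK2 at 0.0050 with quantile normalization, and MEST at -0.0747 and WWP2 at -0.18 with array weights. Leaving out 1 ovary gave -0.36 to 0.31 for miR-140-3p, -0.25 to 0.0529 for miR-140-5p, -0.0629 to 0.41 for miR-151-3p, -0.0674 to 0.35 for miR-151-5p, -0.0872 to 0.36 for WWP2 and -0.14 to 0.0446 for PTK2. It also gave arm balances of -0.27 to 0.34 for miR-140 and -0.48 to 0.38 for miR-151.

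The r of miR-204 with TRPM3 passed the threshold with TMM scaling alone, at 0.98, and ran from 0.60 to 0.98 over the scalings and ranks and from 0.69 to 0.88 when 1 ovary was left out. The r of miR-151-3p with PTK2 turned to 0.29 with median centring, 0.35 with TMM and 0.43 with TMM and without ZD8. The r of miR-140-3p with WWP2 was -0.15 with TMM and without ZD8, and -0.18 to 0.66 when 1 ovary was left out, where miR-151-5p with PTK2 gave -0.54 to 0.60. The cause of these changes was not tested. Among the fold changes, pairs and arm balances of these miRNAs and hosts, 33 values under the alternatives changed sign. TRPM3 was fitted without the filter only, and its other values are differences of means without a test. No paired analysis was possible because each ovary came from a different sow and the groups share no ovary numbers.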
